A study of Mus musculus with 47 samples.

Results

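The LPS response of bone marrow-derived macrophages (BMDMs) labelled Zmynd8 cKO was measured by setting 1 RNA-seq library of LPS-treated cells against 1 library of untreated cells. The members are these 2 of the 47 samples of the series, chosen by their labels, and each of the 51912 genes in the deposited tables was joined between them by its Ensembl identifier. The study asks how ZMYND8, a reader of histone marks that is recruited with chromatin regulators, shapes the inflammatory gene programme of macrophages. The corresponding pair of libraries from WT BMDMs gives the size of the induction against which the cKO response is set. The remaining samples include BMDMs treated with IL-4, Raw264.7 macrophage lines and chromatin profiles, of which only the IL-4 libraries are drawn on, as a further reference level.

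Marrow cells of the femur and tibia of C57BL/6 mice were grown into BMDMs with 20 ng/ml M-CSF, the growth factor of the lineage. The age of these mice is not given. The mice labelled Zmynd8 cKO carried Zmynd8 alleles with loxP sites around internal exons and a heterozygous Cre inserted at the Lyz2 locus, which is active in macrophages and neutrophils. WT mice were floxed littermates without Cre, matched for sex and age, so the cKO cells also differ in carrying Cre and a single intact Lyz2 copy. Cells were left untreated (NT) or given 100 ng/ml LPS, a component of the outer membrane of Gram-negative bacteria, for 6 h. In the IL-4 samples the cells received 20 ng/ml of that cytokine. Each library pooled RNA of 3 biological replicates, which leaves 1 sample per condition and no replicate check of any difference. The title of the WT NT sample is spelled differently from its column, and it was matched by the table its description names, whose other column is cKO NT. The samples held 22597408 counts in cKO NT, 23430558 in cKO LPS, 26209321 in WT NT and 24902775 in WT LPS, with 28386612 and 26128553 in WT and cKO IL-4. Levels are counts scaled to a common sample total (CPM), and responses are log2 ratios of CPM plus 1 in LPS over NT. Compared were the 12723 genes whose mean over the 4 NT and LPS samples was 10 counts or more.

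Zmynd8 itself (ENSMUSG00000039671, chr2:165784152-165899016) stood at 81.5 CPM in cKO NT, 86.8 CPM in cKO LPS, 87.1 CPM in WT NT and 79.0 CPM in WT LPS, and at 128 and 151 CPM in WT and cKO IL-4. Its whole-gene level was thus alike between genotypes in NT and LPS. A count per gene does not show whether the floxed exons are missing, and cKO stands for the library labelled cKO throughout. Lyz2, the lysozyme gene that carries Cre, had a response of -1.32 in cKO and -0.67 in WT, and of -0.70 and 0.02 with the sample totals corrected by TMM factors.

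LPS is sensed by the receptor TLR4 with its partners CD14 and MD-2. From the cell surface the adaptor MyD88 leads to NF-κB and AP-1 and to rapid transcription of cytokine and chemokine genes, while from endosomes the adaptor TRIF leads to IRF3 and to interferon β. Secreted interferon then acts back on the cells through its receptor and turns on a large set of antiviral genes. In the same hours activated mouse macrophages start to make nitric oxide and itaconate, raise glycolysis and stop proliferating.

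The labelled cell type was borne out by its markers. All 10 macrophage markers had counts in each sample, with summed TPM (a level that also divides by transcript length) of 14427 in cKO NT, 9215 in cKO LPS, 20927 in WT NT and 14154 in WT LPS, led by Lyz2. Adgre1, which encodes F4/80, stood at 872 CPM in cKO NT, 1737 CPM in cKO LPS, 1072 CPM in WT NT and 1181 CPM in WT LPS. Csf1r, the M-CSF receptor gene, stood at 1666 CPM in cKO NT, 567 CPM in cKO LPS, 1731 CPM in WT NT and 588 CPM in WT LPS, and fell 2.94-fold in cKO and 2.94-fold in WT, past the fold on totals and in neither genotype on TMM. Markers of other cell types were scarce. Of 12 neutrophil markers 3 passed the filter on low counts, Elane, Ly6g and Mpo were at 0 in both cKO samples, and the sum was 119.6 CPM in cKO NT and 138 in cKO LPS against 103 and 174 in WT. Nearly all of that sum was Mmp8 in NT and Lcn2 after LPS, genes that activated macrophages also express. The 9 dendritic cell markers summed to 1.24 CPM in cKO NT and 28.9 in cKO LPS, and to 1.83 and 23.4 in WT, with Flt3 at 0 and Fscn1, Xcr1, Ccr7 and Clec9a higher after LPS in each genotype. B and T cell markers summed to 26.2 and 17.5 CPM in cKO NT and LPS and 29.6 and 24.4 in WT, led by Cd4, with Cd3d, Cd3e and Cd8a among those at 0 in cKO. Stromal and endothelial markers summed to 26.9 and 138 CPM in cKO and 60.6 and 153 in WT, led by Kdr, with Krt18 at 0 in cKO. Mast cell and basophil markers summed to 4.07 and 0.726 CPM in cKO and 3.59 and 0.803 in WT, with Cpa3, Fcer1a, Mcpt8, Ms4a2 and Prss34 at 0 in cKO and Kit and Gata2 making up the sum. Dendritic cell and stromal marker sums rose with LPS in both genotypes, and their part in the response was not tested. In bulk RNA, fewer cells of a type and less RNA per cell cannot be told apart.

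Called at a fold of at least 2, 1666 of 12723 genes were higher after LPS in cKO (13.1%) and 4152 were lower (32.6%). In WT, 1341 were higher (10.5%) and 4202 lower (33.0%). Genes higher in both genotypes numbered 1142, which is 68.5% of the cKO set and 85.2% of the WT set. Genes lower in both numbered 3131, or 75.4% and 74.5%. Across the genes tested, which are not independent replicates, the responses of the genotypes had a Pearson r of 0.90 and a Spearman rho of 0.85.

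The response was deep at its upper end and was deeper there in cKO. At least 16-fold higher were 179 genes in cKO and 128 in WT, at least 64-fold 60 and 32, and at least 256-fold 10 and 3. Downward the genotypes were closer, with 35 and 39 genes at least 16-fold lower. The 179 genes raised at least 16-fold in cKO took up 0.242% of counts in cKO NT and 14.4% in cKO LPS, against 0.722% and 14.5% in WT. After LPS the shares of both genotypes were alike. In NT the cKO share was the lower, which choosing genes by their rise in cKO favours. All genes called higher in cKO went from 6.85% to 39.6% of its counts, and those called lower from 39.7% to 11.9%.

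The size of a response depends on how the samples are scaled. The median response of all genes tested was -0.54 in cKO and -0.59 in WT, and scaling by the median ratio between samples raised it by 0.55 and 0.60. TMM factors raised it by 0.51 and 0.57, and the deposited TPM by 0.27 in cKO and 0.02 in WT. Of the cKO calls, 28.6% were higher on library totals, 55% on the median ratio and 53.2% on TMM. In WT these shares were 24.2%, 54.5% and 52.8%. Measured from the all-gene median, 2676 genes were at least 2-fold higher in cKO and 2207 lower, and 2363 and 2013 in WT. The balance of rises and falls therefore hangs on the scale, and lists of falling genes are also given on TMM.

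The markers of the response rose in cKO as in WT. Nos2 (ENSMUSG00000020826, chr11:78920787-78960254), the inducible nitric oxide synthase gene, stood at 4.25 CPM in cKO NT, 7391 CPM in cKO LPS, 8.74 CPM in WT NT and 7472 CPM in WT LPS. The LPS samples were alike and the cKO NT sample was the lowest, and the rise was 1739.7-fold (95% limits 1425 to 2148) in cKO and 855-fold (95% limits 751 to 978) in WT. Such limits are exact Clopper-Pearson limits on the counts of the samples compared and cover counting error only. Ifit2 (ENSMUSG00000045932, chr19:34550694-34576419), an interferon-induced inhibitor of viral translation, stood at 78.9 CPM in cKO NT, 6671 CPM in cKO LPS, 698 CPM in WT NT and 6715 CPM in WT LPS. It too ended at the same level in both genotypes and started far lower in cKO, so that it rose 84.5-fold (95% limits 80.7 to 88.6) in cKO and 9.63-fold (95% limits 9.48 to 9.78) in WT. Il12b (ENSMUSG00000004296, chr11:44400063-44414033), which encodes the p40 subunit of IL-12 and IL-23, had a count of 1 in cKO NT, 647 in cKO LPS, 0 in WT NT and 216 in WT LPS. It was near absent in both NT samples and highest in cKO LPS, a rise of 624-fold (95% limits 112 to 24684) in cKO over that 1 count. In WT, where a library at 0 is put at a floor of 3 counts, it rose at least 75.8-fold. These folds stand on different denominators and are not compared. Of these markers, Nos2 and Ifit2 differed between genotypes in the untreated state and Il12b after LPS.

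**Figure D1:**
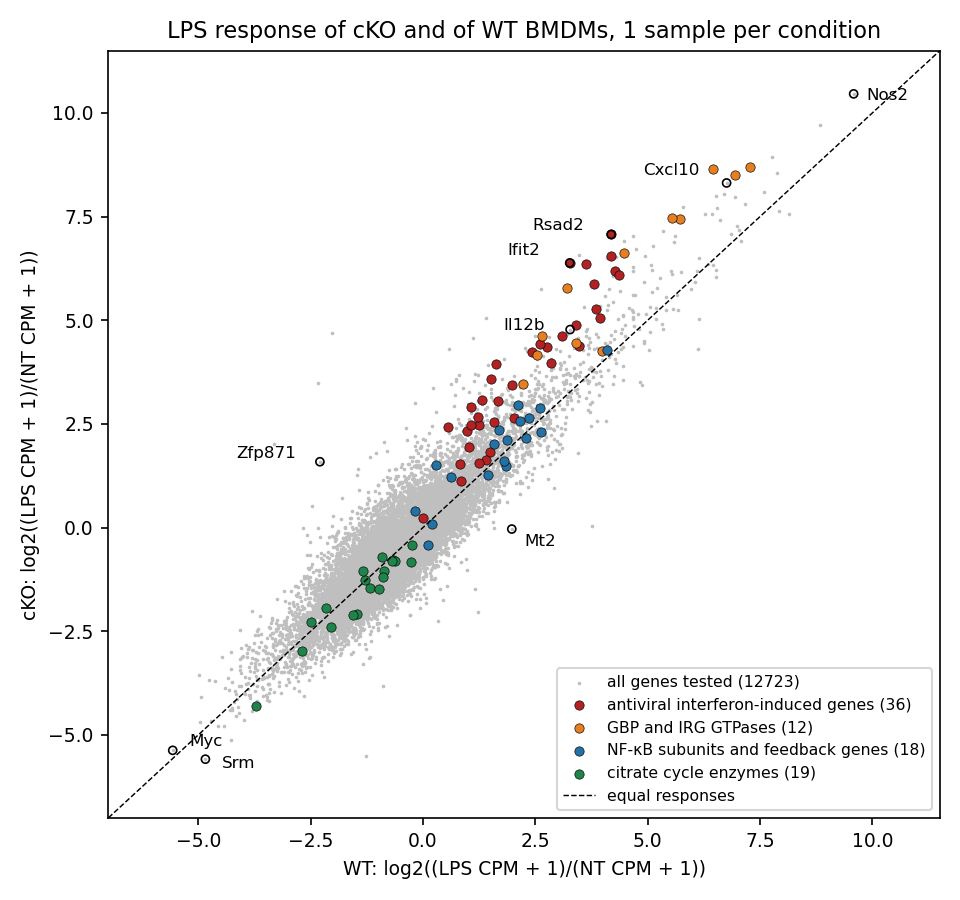
Log2 response to LPS of each gene tested in WT (x axis) and cKO (y axis), 1 sample per condition, as log2 of LPS over NT in CPM plus 1. The interferon-induced lists lie above the dashed line of equal responses, with medians of 3.52 in cKO and 1.82 in WT for the antiviral genes, while the NF-κB list lies near it.

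By the size of the cKO response, Nos2 came first, followed by Cxcl9, Serpina3g, Gbp4, Gbp5, Tgtp1, Iigp1, Cxcl10, Socs3, Cd69, Ptgs2, Clic5, Cxcl11, Fgl2 and Cfb when genes under a mean of 100 counts in the cKO samples are passed over. This order uses CPM plus 1. The folds printed are ratios of CPM without that added 1, so their order differs where NT counts are few. Cxcl9, a chemokine that draws CXCR3-bearing T cells, stood at 1.81 CPM in cKO NT, 2347 CPM in cKO LPS, 4.16 CPM in WT NT and 2372 CPM in WT LPS. It rose 1293-fold in cKO and 570.5-fold in WT, with both LPS samples at the same level. Its neighbour Cxcl11 had 2 counts in cKO NT, 5675 in cKO LPS, 19 in WT NT and 6184 in WT LPS, a rise of 2737-fold (95% limits 757 to 22602) in cKO and 343-fold in WT. Serpina3g, a protease inhibitor of activated leukocytes, stood at 0.398 CPM in cKO NT, 679 CPM in cKO LPS, 1.26 CPM in WT NT and 494 CPM in WT LPS. Here cKO was lower than WT in NT and higher after LPS, and the folds were 1705-fold in cKO and 392-fold in WT. Cd69, a membrane protein that appears early on activated leukocytes, stood at 1.19 CPM in cKO NT, 576 CPM in cKO LPS, 4.46 CPM in WT NT and 567 CPM in WT LPS, and Fgl2, a secreted fibrinogen-like protein, at 11.9 CPM in cKO NT, 2751 CPM in cKO LPS, 48.3 CPM in WT NT and 2732 CPM in WT LPS. Cfb, the complement factor B gene, stood at 5.75 CPM in cKO NT, 1420.1 CPM in cKO LPS, 16.4 CPM in WT NT and 1624 CPM in WT LPS. Cd69, Fgl2 and Cfb were lower in cKO in NT and closer between the genotypes after LPS. Ptgs2, the prostaglandin-forming cyclooxygenase 2, stood at 0.575 CPM in cKO NT, 401 CPM in cKO LPS, 0.916 CPM in WT NT and 175 CPM in WT LPS, and its rise was 696-fold in cKO and 191-fold in WT. It was low in both NT samples and highest in cKO after LPS.

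Genes of the NF-κB pathway rose to a like degree in cKO and WT. Of 18 subunit and feedback genes, 15 were higher in cKO and 13 in WT, none was lower, and the medians were 2.07 and 1.83 beside -0.54 and -0.59 over all genes. The all-gene shares higher were 13.1% in cKO and 10.5% in WT, and those lower 32.6% and 33.0%. Nfkbia, whose product IκBα holds NF-κB in the cytoplasm and is remade in response to it, stood at 58.3 CPM in cKO NT, 371 CPM in cKO LPS, 58.1 CPM in WT NT and 301 CPM in WT LPS. Tnfaip3, which encodes the deubiquitinase A20, stood at 76.6 CPM in cKO NT, 397 CPM in cKO LPS, 91.4 CPM in WT NT and 297 CPM in WT LPS. Both began level between the genotypes or nearly so and ended somewhat higher in cKO, with rises of 6.36-fold and 5.18-fold in cKO against 5.18-fold and 3.25-fold in WT. Traf1, an adaptor of TNF receptors, rose the most of the list, 21.2-fold in cKO and 18.6-fold in WT. Rel, the c-Rel subunit, stood at 20.5 CPM in cKO NT, 59.9 CPM in cKO LPS, 35.7 CPM in WT NT and 43.7 CPM in WT LPS and was the list's only gene with a log2 response larger by at least 1 in cKO. Rela, the p65 subunit, stood at 97.1 CPM in cKO NT, 104 CPM in cKO LPS, 83.1 CPM in WT NT and 95.9 CPM in WT LPS and did not reach the fold in either genotype.

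Inflammatory cytokines followed the same course with a few wider gaps. Of 20 listed cytokines 16 passed the filter, and 14 of these were higher in cKO and 14 in WT, with medians of 3.11 (3.59 with genes at 0 placed at their bound) and 2.92. Beside these counts stand 13.1% of all genes higher in cKO and 10.5% in WT. Il1b, the precursor of interleukin 1β, stood at 1.42 CPM in cKO NT, 177 CPM in cKO LPS, 1.60 CPM in WT NT and 65.3 CPM in WT LPS. The NT samples were alike and cKO LPS was the highest, so the rise was 125-fold (95% limits 88.2 to 183) in cKO and 40.7-fold (95% limits 30.0 to 56.8) in WT. Il6 had 0 counts in cKO NT, 498 in cKO LPS, 2 in WT NT and 330 in WT LPS, a rise of at least 160.1-fold in cKO and 174-fold (95% limits 47.7 to 1439.9) in WT. Tnf, already expressed in untreated cells, stood at 45.3 CPM in cKO NT, 267 CPM in cKO LPS, 33.1 CPM in WT NT and 169 CPM in WT LPS and rose 5.90-fold in cKO and 5.10-fold in WT. Il10, the chief anti-inflammatory cytokine of these cells, stood at 0.752 CPM in cKO NT, 44.2 CPM in cKO LPS, 1.98 CPM in WT NT and 62.4 CPM in WT LPS, lower in cKO in each condition. Inhba, the activin A subunit, stood at 2.21 CPM in cKO NT, 14.6 CPM in cKO LPS, 5.72 CPM in WT NT and 9.04 CPM in WT LPS and gave the widest gap in the list, a difference of responses of 1.70. Il1rn, the secreted antagonist of the interleukin 1 receptor, was the most abundant cytokine on TPM and rose alike in both, 16.6-fold in cKO and 15.8-fold in WT.

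The interferon-induced chemokines rose furthest of their families. Of 11 CC chemokines tested, 6 were higher and 1 lower in each genotype, and of 9 CXC chemokines 4 and 2. Among all genes 13.1% were higher and 32.6% lower in cKO, and 10.5% and 33.0% in WT. On TMM the CC chemokines had 7 higher and 1 lower in cKO and 8 and 0 in WT. The CXC chemokines had 6 higher and 2 lower in cKO and 5 and 2 in WT. On that scale 20.2% of all genes were higher and 17.8% lower in cKO, and 17.9% and 15.9% in WT. Ccl5, an NF-κB and IRF target that draws T cells and monocytes, stood at 22.4 CPM in cKO NT, 4454 CPM in cKO LPS, 54.0 CPM in WT NT and 4745 CPM in WT LPS. Cxcl10, an interferon-induced ligand of CXCR3, stood at 8.67 CPM in cKO NT, 3072 CPM in cKO LPS, 25.4 CPM in WT NT and 2859 CPM in WT LPS. Both reached a like level in the genotypes from a lower start in cKO, and rose 199-fold and 354-fold in cKO against 88.0-fold and 112-fold in WT. Ccl2, the main attractant of monocytes, went the other way and stood at 462 CPM in cKO NT, 972 CPM in cKO LPS, 245 CPM in WT NT and 766 CPM in WT LPS. It began higher in cKO, so its rise was the smaller there, 2.10-fold in cKO and 3.13-fold in WT. Ccl22, a ligand of CCR4, stood at 1.11 CPM in cKO NT, 78.7 CPM in cKO LPS, 1.64 CPM in WT NT and 43.8 CPM in WT LPS and rose 71.1-fold in cKO and 26.7-fold in WT. Cxcl14, a chemokine of tissues at rest, fell 60.0-fold in cKO and 23.0-fold in WT, as ratios of CPM without the pseudocount. With it, the log2 response of Cxcl14 was -3.70 in cKO on totals, and -3.35 in cKO and -2.37 in WT on TMM. Pf4, platelet factor 4, fell 5.49-fold in cKO and 4.24-fold in WT. The neutrophil attractants Cxcl1, Cxcl2 and Cxcl3 were at no more than 7.68 CPM at 6 h in any of the 4 samples.

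Effector enzymes were raised throughout. All 16 listed effector genes were higher in both genotypes, beside 13.1% of all genes in cKO and 10.5% in WT. The list medians were 4.13 in cKO and 4.44 in WT, with a median difference of 0.18. Acod1, which makes itaconate from a citrate cycle intermediate, stood at 27.9 CPM in cKO NT, 5427 CPM in cKO LPS, 56.3 CPM in WT NT and 4447 CPM in WT LPS and rose 195-fold in cKO and 79.0-fold in WT. Slc7a2, an importer of arginine for nitric oxide synthesis, stood at 7.26 CPM in cKO NT, 982 CPM in cKO LPS, 13.4 CPM in WT NT and 688 CPM in WT LPS. Cybb, the catalytic subunit of the phagocyte oxidase, stood at 396 CPM in cKO NT, 2094 CPM in cKO LPS, 707 CPM in WT NT and 1538 CPM in WT LPS. Over the list, 11 of 16 genes were lower in cKO in NT and 9 had a larger response in cKO. Over all genes tested, the cKO over WT log2 ratio in NT had a median of -0.02 and the difference of responses 0.04. In Acod1, Slc7a2 and Cybb cKO was the lower in NT and the higher after LPS. Upp1, uridine phosphorylase, ran against this, at 0.974 CPM in cKO NT, 370.1 CPM in cKO LPS, 0.267 CPM in WT NT and 356 CPM in WT LPS, with a smaller rise in cKO of 380.2-fold (95% limits 251 to 607) against 1333-fold (95% limits 647 to 3317) in WT, whose NT sample held 7 counts. Sod2, the mitochondrial superoxide dismutase, rose the same in both, 13.6-fold in cKO and 14.5-fold in WT. Antigen presentation moved as a block, with 17 of 19 genes higher in each genotype, beside 13.1% and 10.5% of all genes. Its medians were 2.27 and 1.78. Cd40, the costimulatory receptor that receives help from T cells, rose 75.2-fold in cKO and 55.8-fold in WT, and Cd86 30.5-fold in cKO and 26.8-fold in WT. Cd274, which encodes the checkpoint ligand PD-L1, stood at 62.2 CPM in cKO NT, 2565 CPM in cKO LPS, 172 CPM in WT NT and 2662 CPM in WT LPS, again equal after LPS and lower in cKO at the start.

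Antiviral interferon-induced genes had larger responses in cKO than in WT. Of 36 listed genes 35 were higher in cKO and 31 in WT on totals, and 35 in each genotype on TMM. The all-gene shares higher were 13.1% and 10.5% on totals, and 20.2% and 17.9% on TMM. In each of the 36 genes the log2 response was larger in cKO. It was larger by at least 1 in 26, beside 7.80% of all genes. The medians were 3.52 in cKO and 1.82 in WT, with a median difference of 1.45 beside 0.04 over all genes tested. Rsad2, the antiviral enzyme viperin, stood at 97.9 CPM in cKO NT, 13284 CPM in cKO LPS, 621 CPM in WT NT and 11329.8 CPM in WT LPS and rose 136-fold in cKO and 18.3-fold in WT. Cmpk2, a mitochondrial nucleotide kinase whose gene adjoins Rsad2, stood at 60.4 CPM in cKO NT, 5718 CPM in cKO LPS, 318 CPM in WT NT and 5753 CPM in WT LPS and rose 94.6-fold in cKO and 18.1-fold in WT. The LPS samples were close and the start was lower in cKO. Ifi44 stood at 3.63 CPM in cKO NT, 375 CPM in cKO LPS, 33.5 CPM in WT NT and 428 CPM in WT LPS, Mx1, a dynamin-like GTPase that blocks influenza viruses, at 38.3 CPM in cKO NT, 2887 CPM in cKO LPS, 162 CPM in WT NT and 3128 CPM in WT LPS, and Isg15, a ubiquitin-like modifier, at 56.6 CPM in cKO NT, 1713 CPM in cKO LPS, 193 CPM in WT NT and 2062 CPM in WT LPS. Irf7, the factor that amplifies interferon production, stood at 144 CPM in cKO NT, 3585 CPM in cKO LPS, 503 CPM in WT NT and 4293 CPM in WT LPS. For each of these the order was the same, with cKO NT the lowest, WT NT next, and the LPS samples far above and close together. Irf9, a subunit of the interferon-activated factor, was the exception on the list, at 78.3 CPM in cKO NT, 92.1 CPM in cKO LPS, 103 CPM in WT NT and 103 CPM in WT LPS, and did not reach the fold in either genotype. The difference between genotypes thus lay in the untreated samples, with a median cKO over WT log2 ratio of -1.52 in NT and -0.08 after LPS. Summed over the list, these genes held 3202 CPM in cKO NT, 57904 in cKO LPS, 9611 in WT NT and 58260.0 in WT LPS.

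The guanylate-binding proteins (GBPs) and immunity-related GTPases (IRGs), which attack the vacuoles of intracellular microbes, behaved alike and more steeply. All 12 were higher in both genotypes, beside 13.1% of all genes in cKO and 10.5% in WT. The response was larger by at least 1 in cKO for 11, beside 7.80% of all genes. The medians of the 12 genes were 6.20 in cKO and 4.23 in WT. Gbp2, the most abundant of them on TPM, stood at 28.6 CPM in cKO NT, 5189 CPM in cKO LPS, 99.5 CPM in WT NT and 5262 CPM in WT LPS. Gbp5, which promotes inflammasome assembly, stood at 4.56 CPM in cKO NT, 2214 CPM in cKO LPS, 21.1 CPM in WT NT and 1946 CPM in WT LPS, and Gbp7 at 6.86 CPM in cKO NT, 428 CPM in cKO LPS, 34.0 CPM in WT NT and 322 CPM in WT LPS. Each was lower in cKO than in WT before LPS and level with WT or above it afterwards, with rises in cKO of 181-fold, 486-fold and 62.3-fold against 52.9-fold, 92.2-fold and 9.49-fold in WT. Irgm1, an IRG that regulates the others, rose the least, 11.1-fold in cKO and 4.70-fold in WT. The median cKO over WT log2 ratio of the list was -1.75 in NT and -0.05 after LPS.

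The IL-4 samples show how much rests on the untreated reference. In them 34 of 36 antiviral genes and 12 of 12 GBP and IRG genes were higher in cKO than in WT, the reverse of NT. Ifit2 stood at 225 CPM in cKO IL-4 and 97.9 in WT IL-4, so WT NT was the highest of the 4 samples without LPS. Against the IL-4 sample of the same genotype in place of NT, a comparison chosen after seeing the data, the median response of the antiviral list was 2.10 in cKO and 2.82 in WT, and that of the GBPs and IRGs 3.64 and 4.76. The median response of the NF-κB list against IL-4 was 0.20 in cKO and 0.47 in WT, in place of 2.07 and 1.83. The sign of the difference between genotypes therefore turned with the reference sample. Of the response markers it turned for Ifit2 and Nos2, whose difference went from 3.12 to -1.20 and from 0.88 to -1.88 in that order, and for Il12b it shrank to 0.33. The IL-4 samples also held more neutrophil marker RNA, with summed CPM of 433 in WT and 577 in cKO against 103 and 119.6 in NT. On TPM the sums were 1368 and 1933 against 77.6 and 75.4. The part of neutrophil marker RNA in the change of sign was not tested.

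**Figure D2:**
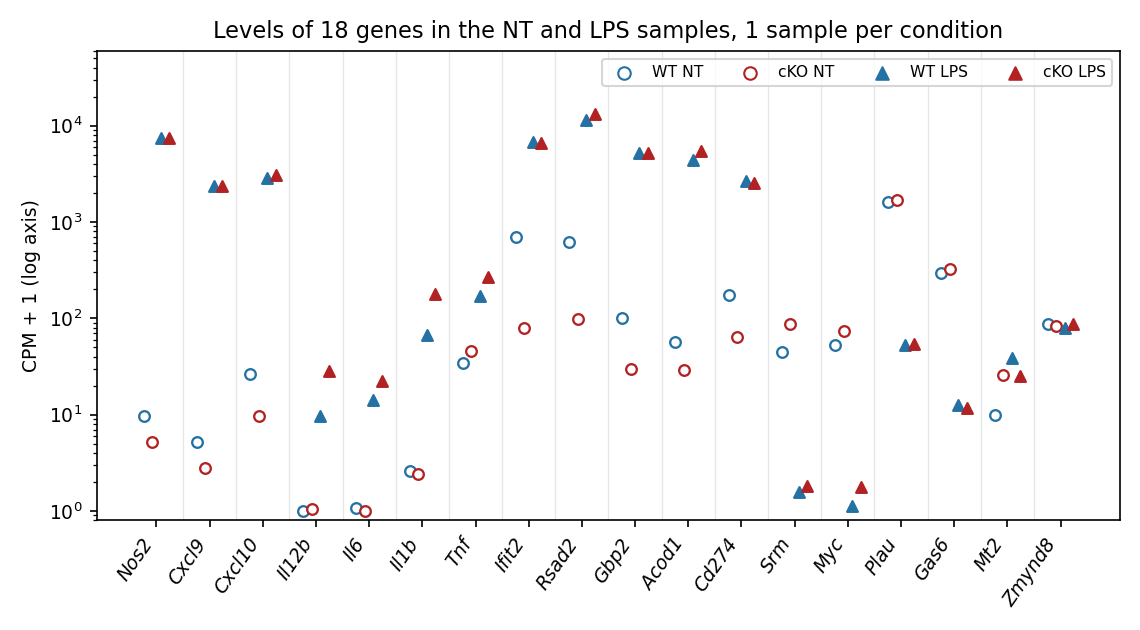
Level of 18 genes in CPM plus 1 (log axis) in the WT (blue) and cKO (red) samples, open circles for NT and filled triangles for LPS, 1 sample per condition. For Nos2, Ifit2, Rsad2, Gbp2 and Cd274 the LPS points lie close together while the open cKO point is lower than the open WT point, and for Il12b and Il1b the cKO LPS point is the highest.

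Among the genes that sense LPS and pass on the signal, 9 of 20 were higher and 2 lower in cKO. In WT 4 were higher and 2 lower, and the medians were 0.68 in cKO and 0.19 in WT. Among all genes 13.1% were higher and 32.6% lower in cKO, and 10.5% and 33.0% in WT. On TMM 11 of the 20 were higher and 0 lower in cKO, and 9 and 1 in WT. The all-gene shares were then 20.2% and 17.8% in cKO and 17.9% and 15.9% in WT. Cd14, the LPS co-receptor, stood at 452 CPM in cKO NT, 189 CPM in cKO LPS, 223 CPM in WT NT and 252 CPM in WT LPS. It was highest in cKO NT, and its response was -1.25 in cKO and 0.18 in WT, or -0.64 and 0.86 on TMM, where the cKO fall no longer reached the fold. Tlr9, a receptor for bacterial DNA, stood at 6.81 CPM in cKO NT, 311 CPM in cKO LPS, 20.9 CPM in WT NT and 261 CPM in WT LPS and rose 45.6-fold in cKO and 12.5-fold in WT. Tlr4 itself stood at 51.2 CPM in cKO NT, 35.4 CPM in cKO LPS, 80.7 CPM in WT NT and 37.2 CPM in WT LPS, a fall past the fold in WT on totals and in neither genotype on TMM. Irak1, a kinase below MyD88 that is removed in tolerant cells, fell 2.96-fold in cKO and 3.66-fold in WT, and on TMM past the fold in WT only. The interferon ligands were scarce at 6 h. Ifnb1 had 0 counts in cKO NT, 28 in cKO LPS, 0 in WT NT and 61 in WT LPS, and Ifna2, Ifna4 and Ifna5 had at most 3 counts in each of the 4 samples. Ifngr1, the ligand-binding chain of the interferon γ receptor, stood at 97.2 CPM in cKO NT, 23.5 CPM in cKO LPS, 98.6 CPM in WT NT and 20.5 CPM in WT LPS and fell 4.13-fold in cKO and 4.80-fold in WT. Of the 7 interferon ligands and receptors tested, 2 were higher and 1 lower in each genotype on totals. On TMM 6 were higher and 1 lower in cKO, and 4 and 1 in WT. Among all genes 13.1% and 10.5% were higher on totals, and 20.2% and 17.9% on TMM. Beside 32.6% and 33.0% of all genes lower on totals and 17.8% and 15.9% on TMM, the falls do not set this list apart.

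Signal dampeners were mostly raised, 10 of 17 in cKO and 9 in WT, beside 13.1% and 10.5% of all genes. The list medians were 1.58 and 1.38. In cKO 3 were lower and in WT 4 (2 in each on TMM). Beside 32.6% and 33.0% of all genes lower on totals, and 17.8% and 15.9% on TMM, the falls do not set this list apart. Socs3, which shuts off IL-6 receptor signalling, stood at 1.42 CPM in cKO NT, 662 CPM in cKO LPS, 2.98 CPM in WT NT and 767 CPM in WT LPS and rose 468-fold in cKO and 258-fold in WT. Dusp4, a phosphatase of MAP kinases, was among those that fell, 11.0-fold in cKO and 37.0-fold in WT. Of 27 AP-1, ATF3, EGR, IRF and STAT factors and their kin, 9 were higher and 6 lower in cKO, and 6 and 6 in WT. Of all genes 13.1% were higher and 32.6% lower in cKO, and 10.5% and 33.0% in WT, so the falls do not set these factors apart. On TMM the list had 12 and 4 in cKO and 13 and 4 in WT, beside 20.2%, 17.8%, 17.9% and 15.9% of all genes. Irf1 stood at 31.8 CPM in cKO NT, 775 CPM in cKO LPS, 59.0 CPM in WT NT and 771 CPM in WT LPS, and Cebpb, which works with NF-κB at cytokine genes, at 25.4 CPM in cKO NT, 246 CPM in cKO LPS, 53.0 CPM in WT NT and 181 CPM in WT LPS. Both were lower in cKO in NT, and the rise of Cebpb was 9.72-fold in cKO and 3.41-fold in WT. Fos, an AP-1 subunit, fell 2.59-fold in cKO and 3.96-fold in WT, though on TMM its cKO response of -0.75 did not reach the fold. Egr2, a zinc finger factor, fell 11.6-fold in cKO and 25.4-fold in WT. Of 16 inflammasome and cell death genes 12 were higher in cKO and 11 in WT (13 and 14 on TMM). Beside these counts stand 13.1% and 10.5% of all genes on totals, and 20.2% and 17.9% on TMM. The list medians were 1.83 and 1.60. Casp4, the mouse caspase 11 gene whose product binds LPS inside the cell, rose 15.0-fold in cKO and 13.5-fold in WT. Cflar, an inhibitor of caspase 8, rose 10.1-fold in cKO and 3.72-fold in WT, from a lower level in cKO NT than in WT NT to a higher one after LPS.

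The median responses of the glycolysis and citrate cycle lists had opposite signs in both genotypes, though not every member reached the fold. Of 18 glycolysis genes 9 were higher in cKO and 11 in WT and none lower, with medians of 1.15 and 1.29. On TMM 12 were higher in cKO and 17 in WT, with medians of 1.76 and 1.98. The all-gene shares higher were 13.1% and 10.5% on totals, and 20.2% and 17.9% on TMM. Slc2a6, a sugar transporter of activated macrophages, stood at 16.3 CPM in cKO NT, 651 CPM in cKO LPS, 11.9 CPM in WT NT and 665 CPM in WT LPS, and Pfkfb3, which makes the activator of phosphofructokinase, at 37.6 CPM in cKO NT, 847 CPM in cKO LPS, 52.7 CPM in WT NT and 891 CPM in WT LPS. Both rose strongly in each genotype. Gapdh stood at 4232 CPM in cKO NT, 3819 CPM in cKO LPS, 2572 CPM in WT NT and 4260.4 CPM in WT LPS. It was highest in WT LPS and cKO NT and lowest in WT NT, so its response was -0.15 in cKO and 0.73 in WT, which on TMM turned to 0.47 and 1.42. The response was smaller in cKO for 14 of the 18 genes on totals, with a median difference of -0.44, and the median cKO over WT ratio in NT was 0.41. Over all genes tested those medians were 0.04 and -0.02. Of 19 citrate cycle enzymes 13 were lower in cKO and 10 in WT with none higher, beside 32.6% and 33.0% of all genes. On TMM 7 and 5 were lower, beside 17.8% and 15.9% of all genes, with cKO medians of -1.26 on totals and -0.65 on TMM. Idh2, the mitochondrial NADP-dependent isocitrate dehydrogenase, stood at 100.1 CPM in cKO NT, 4.10 CPM in cKO LPS, 77.9 CPM in WT NT and 5.02 CPM in WT LPS and fell 24.4-fold in cKO and 15.5-fold in WT. Idh3a, the catalytic subunit of the NAD-dependent enzyme, fell 8.97-fold in cKO and 7.29-fold in WT. Sterol and fatty acid synthesis genes were lower in 13 of 20 cases in cKO and 15 in WT, beside 32.6% and 33.0% of all genes. On TMM 10 and 11 were lower, beside 17.8% and 15.9% of all genes. Fasn, fatty acid synthase, stood at 81.2 CPM in cKO NT, 7.08 CPM in cKO LPS, 82.1 CPM in WT NT and 5.26 CPM in WT LPS, level between the genotypes in NT and low after LPS in both, with log2 responses of -3.35 in cKO and -3.73 in WT.

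Srm, spermidine synthase, stood at 85.9 CPM in cKO NT, 0.811 CPM in cKO LPS, 43.8 CPM in WT NT and 0.562 CPM in WT LPS and fell 106-fold (95% limits 67.7 to 176) in cKO and 77.9-fold (95% limits 46.2 to 143) in WT. Myc, the growth-promoting factor, stood at 72.2 CPM in cKO NT, 0.768 CPM in cKO LPS, 52.2 CPM in WT NT and 0.120 CPM in WT LPS and had log2 responses of -5.37 in cKO and -5.57 in WT, where 3 counts were left. Both were all but lost after LPS in each genotype. Other named genes among the 15 lowest cKO responses were Pcp4l1, Plau, Prmt7, Gas6, Arhgap19, Nptx1, Uck2, Abcb4, Rasgrp3, Cdca7l and Gpr183, and 2 of the 15 were predicted genes. Plau, the urokinase gene, stood at 1703 CPM in cKO NT, 52.7 CPM in cKO LPS, 1608 CPM in WT NT and 51.3 CPM in WT LPS, and Gas6, a bridge between dying cells and the receptors Mertk and Axl, at 322 CPM in cKO NT, 10.7 CPM in cKO LPS, 298 CPM in WT NT and 11.6 CPM in WT LPS. Their falls were alike in the genotypes, 32.3-fold in cKO and 31.3-fold in WT for Plau and 30.0-fold in cKO and 25.6-fold in WT for Gas6. Gpr183, a receptor for oxysterols, fell 42.6-fold in cKO and 48.3-fold in WT. Of 32 cell cycle genes tested 21 were lower and 2 higher in cKO, and 14 and 2 in WT, beside 32.6% and 33.0% of all genes lower. On TMM 13 were lower and 3 higher in cKO and 9 and 3 in WT, beside 17.8% and 15.9% of all genes lower. Mcm5, a subunit of the replicative helicase, stood at 77.2 CPM in cKO NT, 8.41 CPM in cKO LPS, 49.3 CPM in WT NT and 6.71 CPM in WT LPS and fell 9.18-fold in cKO and 7.35-fold in WT. Tpx2, a spindle assembly factor, was an exception and rose 20.6-fold in cKO and 20.5-fold in WT.

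Of 20 genes of resting and scavenging macrophages 10 were lower in cKO and 8 in WT, with 2 higher in each, beside 32.6% and 33.0% of all genes lower and 13.1% and 10.5% higher. On TMM 7 were lower in cKO and 7 in WT, and the WT median went from -0.66 to 0.00. The cKO median was -1.01 (-1.11 with genes at 0 placed at their bound). Mrc1, the mannose receptor gene, stood at 279.8 CPM in cKO NT, 51.6 CPM in cKO LPS, 444 CPM in WT NT and 46.2 CPM in WT LPS, and Trem2, a lipid receptor, at 1112 CPM in cKO NT, 146 CPM in cKO LPS, 724 CPM in WT NT and 168 CPM in WT LPS. Both fell in each genotype, Mrc1 by 5.42-fold in cKO and 9.60-fold in WT and Trem2 by 7.62-fold in cKO and 4.30-fold in WT. Axl, a receptor for Gas6, rose 8.19-fold in cKO and 4.03-fold in WT. Among chemoattractant receptors 5 of 13 were higher and 3 lower in cKO, and 4 and 3 in WT, on totals. On TMM 7 were higher and 3 lower in cKO, and 5 and 3 in WT. The all-gene shares higher and lower were 13.1% and 32.6% in cKO and 10.5% and 33.0% in WT on totals. On TMM they were 20.2% and 17.8% in cKO and 17.9% and 15.9% in WT. C5ar1, the receptor for complement C5a, fell 11.0-fold in cKO and 17.1-fold in WT, and Fpr2, a receptor for formyl peptides, rose 94.2-fold in cKO and 53.5-fold in WT. Lysosome genes had a cKO median of -0.67 on totals and -0.06 on TMM. In cKO 8 of 18 were lower on totals and 4 on TMM, beside 32.6% and 17.8% of all genes. No direction is therefore given for this list. NRF2 targets and metal handling genes were lower in 9 of 15 cases in each genotype, beside 32.6% and 33.0% of all genes. On TMM 5 were lower in cKO and 3 in WT, beside 17.8% and 15.9% of all genes. Slc40a1, the iron exporter ferroportin, fell 9.65-fold in cKO and 10.6-fold in WT. Ftl1, ferritin light chain, was the most abundant transcript in cKO NT on TPM, and Fth1, ferritin heavy chain, in cKO LPS. Of 12 matrix proteases and inhibitors 5 were higher in cKO, beside 13.1% of all genes, and 4 lower, near the 32.6% of all genes. Those higher included Timp1, an inhibitor of metalloproteinases, at 2.17 CPM in cKO NT, 61.5 CPM in cKO LPS, 0.954 CPM in WT NT and 135 CPM in WT LPS. Timp1 was higher in cKO in NT and lower after LPS, and rose 28.3-fold in cKO and 142-fold in WT.

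Cholesterol efflux and LXR genes had 2 of 8 higher and 0 lower in cKO, and 2 and 2 in WT, beside 13.1% and 10.5% of all genes higher. On TMM 3 were higher and 0 lower in each genotype, beside 20.2% and 17.9% of all genes higher. Abca1, the cholesterol exporter, stood at 91.9 CPM in cKO NT, 139.6 CPM in cKO LPS, 276 CPM in WT NT and 116 CPM in WT LPS. It was highest in WT NT, and its WT fall reached the fold on totals but not on TMM, where its response was 1.21 in cKO and -0.56 in WT. The 15 genes for Zmynd8, its reported partners and related regulators had medians of 0.37 in cKO and -0.42 in WT. In cKO 3 were higher and 2 lower, beside 13.1% and 32.6% of all genes. On TMM 7 were higher in cKO and 2 in WT, beside 20.2% and 17.9% of all genes, and the WT median turned to 0.27. Brd2, a bromodomain reader of acetylated histones, rose 2.73-fold in cKO and 2.04-fold in WT, Hdac2, a histone deacetylase, fell 4.59-fold in cKO and 4.79-fold in WT, and Ep300, an acetyltransferase of enhancers, stood at 71.8 CPM in cKO NT, 155 CPM in cKO LPS, 134 CPM in WT NT and 116 CPM in WT LPS. Kdm5a, a demethylase of H3K4, stood at 21.4 CPM in cKO NT, 43.6 CPM in cKO LPS, 44.1 CPM in WT NT and 27.2 CPM in WT LPS. Both were lowest in cKO NT, and Ep300 was highest in cKO LPS while Kdm5a was as high in WT NT. Housekeeping genes had a cKO median of -0.63 on totals and 0.03 on the median ratio, so its sign is set by the scale. On totals 5 of 12 were lower in cKO, beside 32.6% of all genes. Ribosomal protein genes Rpl13a and Rplp0 were among these, at 5.02-fold and 3.43-fold lower in cKO, past the fold on TMM too. Their WT responses on TMM were -0.66 and -0.32, short of the fold. Macrophage markers had 5 of 10 lower in cKO on totals and 0 on TMM, beside 32.6% and 17.8% of all genes. Their cKO median went from -0.55 to 0.06.

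**Figure D3:**
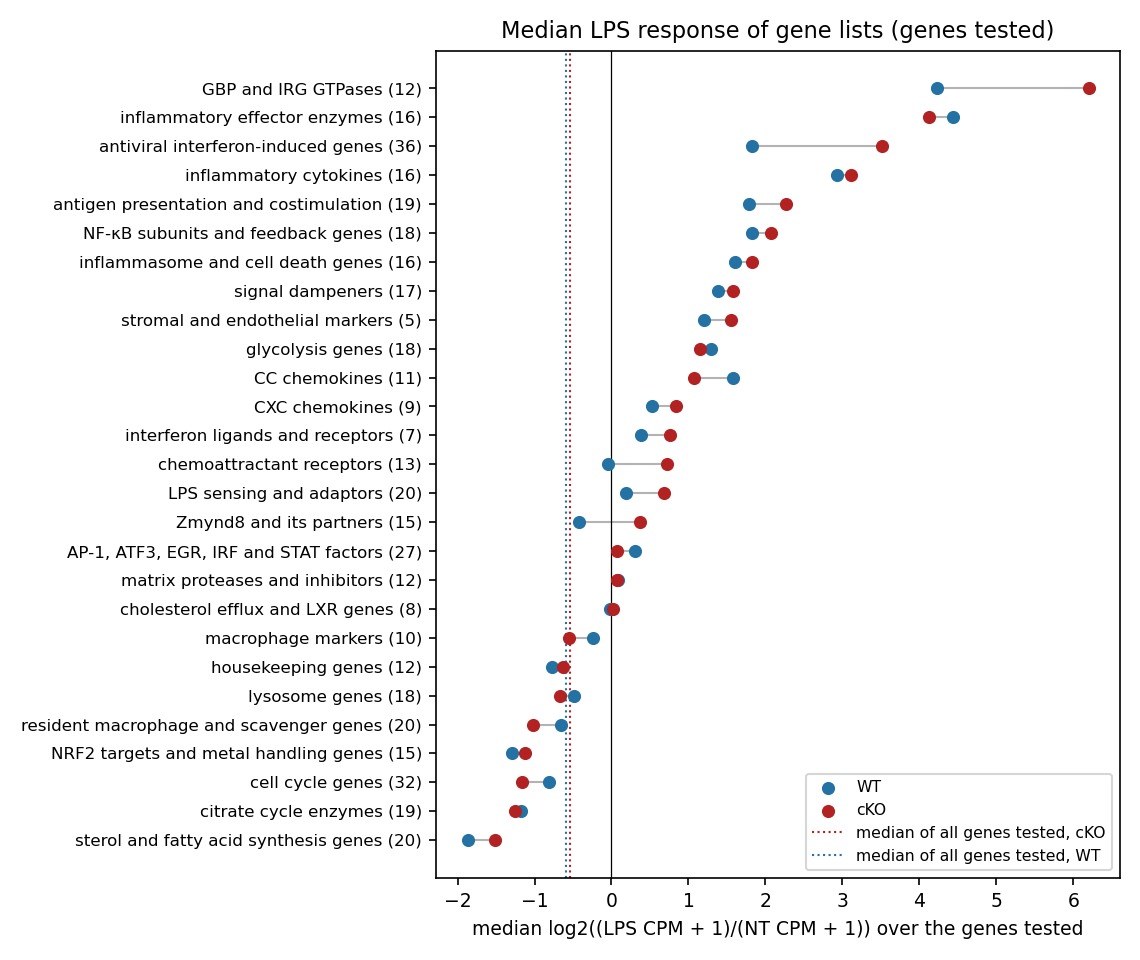
Median log2 response to LPS of the gene lists shown, each with at least 5 genes tested (their number in brackets), in WT (blue) and cKO (red), with the medians of all genes tested as dotted lines. Of the lists plotted, the widest gaps between genotypes are those of the GBP and IRG genes (6.20 in cKO and 4.23 in WT) and the antiviral genes, both larger in cKO.

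Set gene by gene beside WT, the log2 response was larger by at least 1 in cKO for 993 of 12723 genes (7.80%). It was smaller by at least 1 for 284 (2.23%). These numbers depend on the pseudocount, and were 1530 and 779 at 0.1 CPM and 567 and 66 at 5 CPM. Among genes higher in both genotypes, 782 of 1142 were raised more in cKO, 173 by at least 1, and 26 were raised less by at least 1. The median difference of the responses was 0.04 over all genes tested and 0.28 over these genes. Their medians were 2.28 in cKO and 1.93 in WT. The cKO over WT log2 ratio of these genes had a median of -0.26 in NT and -0.03 after LPS. For the 179 genes raised at least 16-fold in cKO those medians were -0.77 and -0.02, and 177 of them were also called higher in WT. Choosing genes by their rise in cKO favours a low level in cKO NT. For the 128 genes raised at least 16-fold in WT, a choice that favours a low level in WT NT, the medians were -0.41 in NT and -0.08 after LPS, a comparison added after seeing the data. Of these 128 genes, 119 (93%) were also among the 179, so this is not a separate set of genes. Of the 993 genes, the NT ratio was larger in size than the LPS ratio in 801 (80.7%), and of the 284 in 195 (68.7%). The share over all genes tested was not worked out, so these shares are not read as a trait of the genes. In some lists the median LPS ratio was larger in size than the median NT ratio. The median cKO over WT ratio of the NF-κB list was 0.04 in NT and 0.26 after LPS. That of 8 genes listed for latent super-enhancers, all higher in both genotypes, was -0.17 and 0.43, with a median difference of responses of 0.72 against NT and -1.71 against IL-4. Of these genes the study's text names Ccl2, Ccl5, Il1b, Cxcl10 and Il1a, and does not name Ccl7, Il27 and Ccl22, on which the medians also rest. Of the 993, 414 were called higher in cKO, 73 lower and 506 neither.

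Genes at the extremes of this comparison were Zfp871, Iffo2, Vasn, Ifi213 and Ifit2, with 5 predicted genes, on the side of cKO, and Fam3b, Raver1, Cerkl, Mt2, Ccnf, SETD1A and Pcdhgc4, with 3 predicted genes, on the side of WT. The symbol SETD1A, in capitals, is the one deposited for ENSMUSG00000108815, and that entry was not checked against mouse Setd1a. Ifi213, an interferon-induced gene of the family that senses DNA, stood at 11.0 CPM in cKO NT, 647 CPM in cKO LPS, 89.4 CPM in WT NT and 559.7 CPM in WT LPS. It matched Ifit2 in pattern, low in cKO NT and level after LPS. Vasn, a membrane protein that binds TGF-β, stood at 1.06 CPM in cKO NT, 20.4 CPM in cKO LPS, 5.88 CPM in WT NT and 7.03 CPM in WT LPS. Here cKO was lowest in NT and highest after LPS, while WT hardly moved. Mt2, a metallothionein that binds zinc, stood at 24.9 CPM in cKO NT, 24.2 CPM in cKO LPS, 8.93 CPM in WT NT and 38.1 CPM in WT LPS, and Ccnf, an F-box protein of the cell cycle, at 6.20 CPM in cKO NT, 13.1 CPM in cKO LPS, 3.40 CPM in WT NT and 32.0 CPM in WT LPS. Mt2 rose in WT only, 4.26-fold, from a level that was already exceeded in cKO NT. Fam3b, a secreted cytokine-like protein, had 239 counts in cKO NT, 254 in cKO LPS, 3 in WT NT and 354 in WT LPS. It was near absent in WT NT alone, so the WT rise was 124-fold (95% limits 42.2 to 605). Against IL-4 in place of NT the Fam3b difference of responses went from -3.74 to -0.31. On TPM the difference for Cerkl, a ceramide kinase-like gene, turned from -2.01 to 0.11.

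The difference between the responses also followed base composition. Of the genes tested 12696 (99.8%) had a GC content from their longest annotated transcript, and its Spearman correlation with the difference, across genes, was -0.36. Over 5 equal groups of genes from low to high GC, the median difference was 0.35, 0.21, 0.06, -0.10 and -0.25, and the share of genes with a larger response in cKO went from 16.1% to 2.32%. The correlation of GC with the cKO over WT ratio was 0.30 in NT, -0.28 after LPS and -0.09 after IL-4. With the median of genes of like GC subtracted, a step chosen after seeing the data, 728 genes had a larger response in cKO, 652 of them also without it, and 318 a smaller one. The median difference of the antiviral genes then was 1.36 in place of 1.45, and that of the GBPs and IRGs 1.52 in place of 1.68. Those of the NF-κB list were 0.35 and 0.26. The part of base composition in these differences was not tested.

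**Figure D4:**
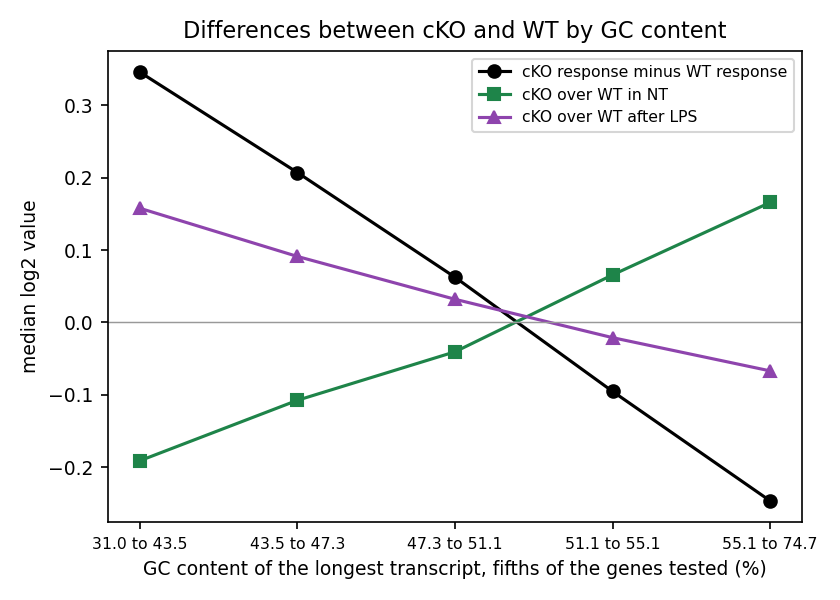
Median over genes tested, in 5 equal groups by GC content, of the difference between the cKO and WT responses (black) and of the cKO over WT log2 ratio in NT (green) and after LPS (purple). The difference falls from 0.35 in the group lowest in GC to -0.25 in the highest, and the NT and LPS lines slope in opposite directions.

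The strongly induced genes of cKO sat close together in the genome. Of the 179 genes raised at least 16-fold, 72 (40.2%) had another such gene within 100 kb, against 543 of 12696 genes tested (4.28%) that had one within that distance. Groups of 3 or more numbered 12 and held 46 genes. In GRCm38 they included 5 Gbp genes at chr3:142493978-142638008 and 5 at chr5:105014150-105293698, the chemokines Cxcl9, Cxcl10 and Cxcl11 at chr5:92321347-92365485, Ch25h and Ifit genes at chr19:34473778-34650009, Ifi206 to Ifi214 at chr1:173468485-173698395, and Tgtp1 and Tgtp2 at chr11:48904656-49135387. Within the Gbp group of chromosome 3 the cKO log2 responses ran from 4.56 to 8.64, and within the chemokine group from 7.80 to 9.70. The members of these groups were chosen after their values were seen. Many of these neighbours are copies of each other, so their reads and their promoters are not independent.

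Promoters of the strongly induced genes were searched for letters known from LPS-responsive genes, in the 250 bases before each start in the RefSeq promoter table (GRCm38.p6), on both strands. Of the 179 genes 130 were in the table, with 157 promoters. The core of the interferon-stimulated response element, GAAANNGAA, was in 47 of them (29.9%), against 7.13% of all 32851 promoters, 6.56% of the 11932 promoters of genes tested and 4.74% of those of genes at least 8-fold lower. It was in 7 of 8 promoters found for 7 of the 12 GBP and IRG genes. On the antiviral list it was in 10 of 30 promoters, found for 25 of the 36 genes. A κB form, GGANTTTCC, was in 5.10% of the strongly induced set against 1.07% of all and 1.14% of genes tested. On the NF-κB list it was in 4 of 20 promoters, found for 15 of the 18 genes. The form TTCNNNGAA of the interferon γ-activated site (GAS) was in 14.0% against 7.02% of all and 6.03% of genes tested. The AP-1 form TGANTCA was in 12.7% against 6.75% and 4.61%, and TATAAA in 18.5% against 12.4% and 6.49%. A match is a description of letters and not of a bound site, and GAAANNGAA and TTCNNNGAA can overlap.

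Promoters of 4 genes that rose together are printed to show how the letters lie, chosen after their matches were seen, with matches in capitals. Cxcl10 (chr5:92348890-92349139, reverse strand) has GAAANNGAA from 213 bases before the start, the κB form from 158 and the AP-1 form from 74. Gbp5 (chr3:142496684-142496933, forward strand) has GAAANNGAA from 164 bases, the κB form from 77, and the GAS form from 245 and from 52. Ifit1 (chr19:34640639-34640888, forward strand) has 3 matches to GAAANNGAA, of which the first 2, from 109 and 103 bases, overlap. Isg15 (chr4:156200819-156201068, reverse strand) has 3 that overlap from 78 bases and the κB form from 41. The promoter of Il12b in the table held none of these letters, and of 2 promoters of Ifit2 neither held GAAANNGAA and 1 held a GAS form.
Cxcl10: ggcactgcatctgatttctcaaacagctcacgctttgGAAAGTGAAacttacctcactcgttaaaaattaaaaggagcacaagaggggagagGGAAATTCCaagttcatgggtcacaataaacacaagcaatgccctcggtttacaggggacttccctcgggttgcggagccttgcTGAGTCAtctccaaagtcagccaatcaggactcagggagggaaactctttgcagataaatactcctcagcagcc
Gbp5: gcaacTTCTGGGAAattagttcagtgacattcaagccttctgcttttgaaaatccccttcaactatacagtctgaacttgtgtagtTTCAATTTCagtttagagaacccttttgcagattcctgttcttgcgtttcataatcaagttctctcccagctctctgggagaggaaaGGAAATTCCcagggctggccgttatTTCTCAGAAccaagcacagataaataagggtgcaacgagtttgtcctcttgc
Ifit1: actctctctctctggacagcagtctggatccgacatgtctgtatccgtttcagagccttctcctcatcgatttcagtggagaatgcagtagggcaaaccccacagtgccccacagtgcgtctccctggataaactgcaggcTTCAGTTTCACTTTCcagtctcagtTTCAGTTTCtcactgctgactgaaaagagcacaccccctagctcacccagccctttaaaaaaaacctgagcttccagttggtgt
Isg15: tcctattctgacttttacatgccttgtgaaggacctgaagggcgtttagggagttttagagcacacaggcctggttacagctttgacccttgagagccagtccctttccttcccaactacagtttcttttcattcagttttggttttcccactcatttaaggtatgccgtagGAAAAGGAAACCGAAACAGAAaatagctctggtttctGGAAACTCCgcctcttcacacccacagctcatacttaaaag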

How the data were processed

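RNA-seq of the cKO and WT BMDM samples in NT and LPS was used, with the IL-4 samples as a further level. Reads were mapped to the mm10 transcriptome by TopHat. The authors deposited an estimated count per gene, and how reads were counted is not stated. The study's text names Cuffdiff for differential expression, and the deposited tables bear the name DEGseq. The authors also deposited TPM, used for levels between genes and as an alternative. The deposited fold changes and p-values, and the Raw264.7 tables, were not used. Estimated counts were rounded to whole counts and divided by the sample total. Responses are log2 ratios of CPM plus 1, called at a fold of 2, and differences at 1, where the mean over 4 samples was 10 counts or more. With 1 sample per condition no test was run. Promoters on chromosome 18 were left out. Limits are exact at 95%, and a gene at 0 was placed at 3 counts. Named are the response markers, members of 33 lists, the 15 highest and 15 lowest cKO responses, the 10 highest and 10 lowest differences, and genes with opposite calls, each averaging 100 counts or more, and predicted genes are only counted, except where the closing section lists opposite calls. The members and lists were chosen with earlier results of these data known. Alternatives were median-ratio (DESeq2 1.42.0) and TMM (edgeR 4.0.16) scaling, other pseudocounts, filters and folds, totals without mitochondrial genes, TPM, and those chosen after seeing the data. Python 3.11.15, pandas 2.3.3, scipy 1.17.1 and R 4.3.3 were used, and the code was tested on simulated data.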

Additional observations from a re-analysis of the deposited data

Results flagged for a closer look

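Across the genes tested, 12 were called in opposite directions in cKO and WT, 10 higher in cKO and lower in WT and 2 the other way. On TMM 11 genes were, 8 of them the same. With 1 sample per condition, none of these differences was tested. Zfp871, a zinc finger gene, stood at 2.66 CPM in cKO NT, 9.99 CPM in cKO LPS, 18.3 CPM in WT NT and 2.93 CPM in WT LPS, and its log2 response in cKO minus that in WT was 3.88. Hipk2, a nuclear kinase of stress signalling, stood at 22.3 CPM in cKO NT, 60.6 CPM in cKO LPS, 73.8 CPM in WT NT and 26.5 CPM in WT LPS, with a difference of 2.85. Both were highest in WT NT and lowest in cKO NT, and fell in WT while they rose in cKO. On TMM the WT response of Hipk2 was -0.77, short of the fold, and that of Zfp871 -1.71. The predicted genes Gm7336, B430305J03Rik, Gm38394 and AC116726.1 had differences of 6.73, 5.81, 2.87 and 2.86. On TMM the WT responses were -1.36, -1.66, -0.53 and -0.45, short of the fold for Gm38394 and AC116726.1. Gm7336 stood at 6.68 CPM in cKO NT, 199 CPM in cKO LPS, 98.4 CPM in WT NT and 23.4 CPM in WT LPS. Against IL-4 in place of NT the differences were smaller, at 1.62 for Zfp871 and 1.38 for Hipk2. Those of Gm7336, B430305J03Rik, Gm38394 and AC116726.1 were then 2.89, 0.88, 1.03 and 1.33.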

How the results depend on the processing

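The numbers of genes moved with the scaling, and the cause was not tested. On the median ratio 2655 genes were higher and 2168 lower in cKO, and 2340 and 1957 in WT. On TMM these were 2574, 2265, 2274 and 2029. They also moved with the fold, by construction. At 1.2-fold 3189 were higher and 7663 lower in cKO, 2736 and 8052 in WT, 4561 had a larger and 3777 a smaller response in cKO. At 4-fold they were 739, 1192, 549, 1135, 79 and 9. With a pseudocount of 0.1 CPM 1530 responses were larger and 779 smaller in cKO, with 5 CPM 567 and 66, and 2752 genes were lower in cKO. On TPM 1701 were larger, and with a mean of at least 100 counts 173 were smaller. Of values at least 1 in size, 7 changed sign, all but that of Cerkl against IL-4. Against IL-4 in place of NT the median difference was -0.89 for the antiviral genes and -0.98 for the GBPs and IRGs, and the difference was -1.20 for Ifit2, -0.96 for Ifi213 and 0.55 for the predicted gene Gm43731. For the predicted gene AC160411.2, with no counts in the cKO LPS and IL-4 samples, it was 0.28 and the cKO response 0. For Cerkl the difference was 0.11 on TPM. The cause was not tested. Smaller values, of 30 results, changed sign in 43 cases, among them the cKO medians of macrophage markers and housekeeping genes with the scaling and, against IL-4, the median differences of the NF-κB, cytokine and antigen presentation lists. Of 424 values for 57 gene results under alternatives, without the filters, which cannot alter a gene's value, 246 kept within their counting limits and 172 moved beyond them, and of 532 for 56 list medians 311 moved by no more than 0.1 and 219 by more. With 1 sample of mixed animals per condition, differences between animals, cultures and libraries cannot be told apart from those of genotype or treatment. Genes with few counts in NT, such as Il12b, Il6 and Cxcl11, have folds whose size this depth leaves wide.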
